A study of Mus musculus with 4 samples.

Results

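The septins *Septin2*, *Septin4*, *Septin5*, *Septin6*, *Septin7*, *Septin8*, *Septin9*, *Septin10*, *Septin11* and *Septin12* were followed in the adult testis of *Ccnyl1*-/- and WT mice. Their members were the array probe sets whose platform annotation names exactly 1 gene, that gene being 1 of these 10 septins. The rule found 26 probe sets of 9 septins, out of 45037 probe sets of 18193 genes. The only probe set annotated to *Septin5* is shared with a neighbouring gene, so that *Septin5* has no member and no value here. The rule used no measured value. The grouping under the sperm annulus comes from what is known of these proteins, since an RNA measurement of whole testis carries no information on where a protein sits.

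The 2 *Ccnyl1*-/- mice and the 2 WT mice were C57BL/6 animals of 2 months, and 1 testis RNA sample per mouse was hybridised to 1 Affymetrix array. By the labels, mice of one genotype are biological replicates. The mutant mice carried the tm1a KO-first allele of EUCOMM, in which a LacZ cassette with a stop and a polyA signal interrupts *Ccnyl1*, which encodes a cyclin Y-like protein, so that every cell type of the testis lacked the intact gene. WT mice carried no engineered allele. Values are signals of Microarray Suite 5.0 (MAS 5.0), in arbitrary linear units, and the levels of different probe sets cannot be set against each other.

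Septins are GTP-binding proteins that join into rods and then into filaments and rings at membranes. They fall into homology groups: that of *Septin2* also holds *Septin4* and *Septin5*, that of *Septin6* also holds *Septin8*, *Septin10* and *Septin11*, that of *Septin9* also holds *Septin12*, and *Septin7* stands alone at the core of most rods. In spermatids, septins build the annulus, a ring that marks the border between the midpiece and the principal piece of the tail and holds back the diffusion of membrane proteins. Mouse sperm that lack SEPTIN4 have no annulus and bend at this border, and SEPTIN12 is also needed for male fertility in mice. The array comparison asked whether loss of *Ccnyl1* changed gene expression in the testis.

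The labels were checked by *Ccnyl1* itself. Its signal was 921 and 969 in *Ccnyl1*-/- testes, against 2256 and 2425 in WT testes (probe set 1455032_at). The log2 fold change, *Ccnyl1*-/- over WT, was -1.29 ± 0.09 (SE, n = 2 mice each, limma adjusted p = 0.00463). The genotypes were clearly apart at this gene, with signal left in the knockout. Of the 32438 probe sets with a mean signal of at least 32, 4 passed an adjusted p of 0.05, or 0.0123%. The tests use log2(signal + 16), which understates changes of dim probe sets, and every fold change below is on that scale.

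The arrays resembled each other, with correlations between 0.977 and 0.980 and a trimmed mean signal of 500 on each. The median signal over the tested probe sets was 209 and 203 on the *Ccnyl1*-/- arrays, against 199 and 197 on the WT arrays. Elongating spermatids, in which the annulus moves to its final place, were represented by *Prm1*, *Prm2*, *Tnp1*, *Tnp2*, *Odf1* and *Akap4*. The summed signal of these 6 genes was 187045 and 178031 in *Ccnyl1*-/- testes, against 182054 and 187766 in WT testes, and the genotypes overlapped. Of their 13 probe sets, both mutant mice were higher at 2 (*Prm1*), beside 20.6% of all tested probe sets. Both were lower at 2 (*Odf1* and *Prm2*), beside 15.3% of all. A limma unadjusted p under 0.05 was found at 3 of 13 (23.1%), beside 6.05% of all. The 4 round spermatid markers summed to 33060 and 33716 in *Ccnyl1*-/- testes, against 35773 and 34661 in WT testes. There the mutant mice were below the WT mice. The spermatocyte markers summed to 29842 and 30630 in *Ccnyl1*-/- testes, against 28510 and 28447 in WT testes. At the brightest probe sets of these 4 genes, 3 fold changes were positive and 1 negative. The negative was *Dmc1* 1420335_at, with 458 and 301 in *Ccnyl1*-/- testes, against 494 and 695 in WT testes. Its log2 fold change was -0.64 (limma adjusted p = 0.780), while at 1449819_at of the same gene the genotypes overlapped. The Sertoli cell markers summed to 3053 and 2980 in *Ccnyl1*-/- testes, against 2823 and 2756 in WT testes, and those of peritubular myoid cells to 3061 and 2756 in *Ccnyl1*-/- testes, against 2663 and 2519 in WT testes. The mutant mice were thus higher in sum at these 3 lists and at the epididymis list. Of the latter, *Lcn8* alone was bright enough to be tested. Its signal was 58.2 and 54.1 in *Ccnyl1*-/- testes, against 12.3 and 26.2 in WT testes. The WT mean of 19.2 was under the minimum signal, which this probe set reached only through the mutant mice. The direction at *Lcn8* thus cannot be separated from its selection. At 7 of the 12 lists the genotypes overlapped, Leydig cells among them. There *Star*, a cholesterol carrier of steroid synthesis, had 2 probe sets with both mutant mice higher (log2 fold changes 0.57 and 0.57, limma adjusted p = 0.797 and 0.816). The other tested Leydig cell probe sets overlapped, namely *Star* 1418728_at and those of *Cyp11a1*, *Cyp17a1* and *Hsd3b1*. Of the 7 tested, 6 had a positive fold change and 1 a negative, *Hsd3b1* (-0.20). No probe set of any of the 12 lists passed the test, and the part of these differences in the septin values was not tested. In whole testis, fewer cells of a type and less RNA per cell cannot be told apart.

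None of the septin probe sets passed the test. Of the 26 septin probe sets, 22 reached the minimum signal and were tested, and 0 had a limma adjusted p under 0.05, the lowest being 0.797. At an unadjusted p under 0.05, 1 of 22 was counted (4.55%), against 6.05% of all tested probe sets. The fold changes were positive at 11 and negative at 11 (5 and 17 with the arrays scaled to one median), with a median of 0.0054 on the log2 scale beside 0.022 over all tested probe sets. They lay between -0.37 and 0.40. At the brightest probe set of each septin, 7 of 9 fold changes were negative (9 of 9 with the arrays scaled to one median), with a median of -0.031.

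**Figure D1:**
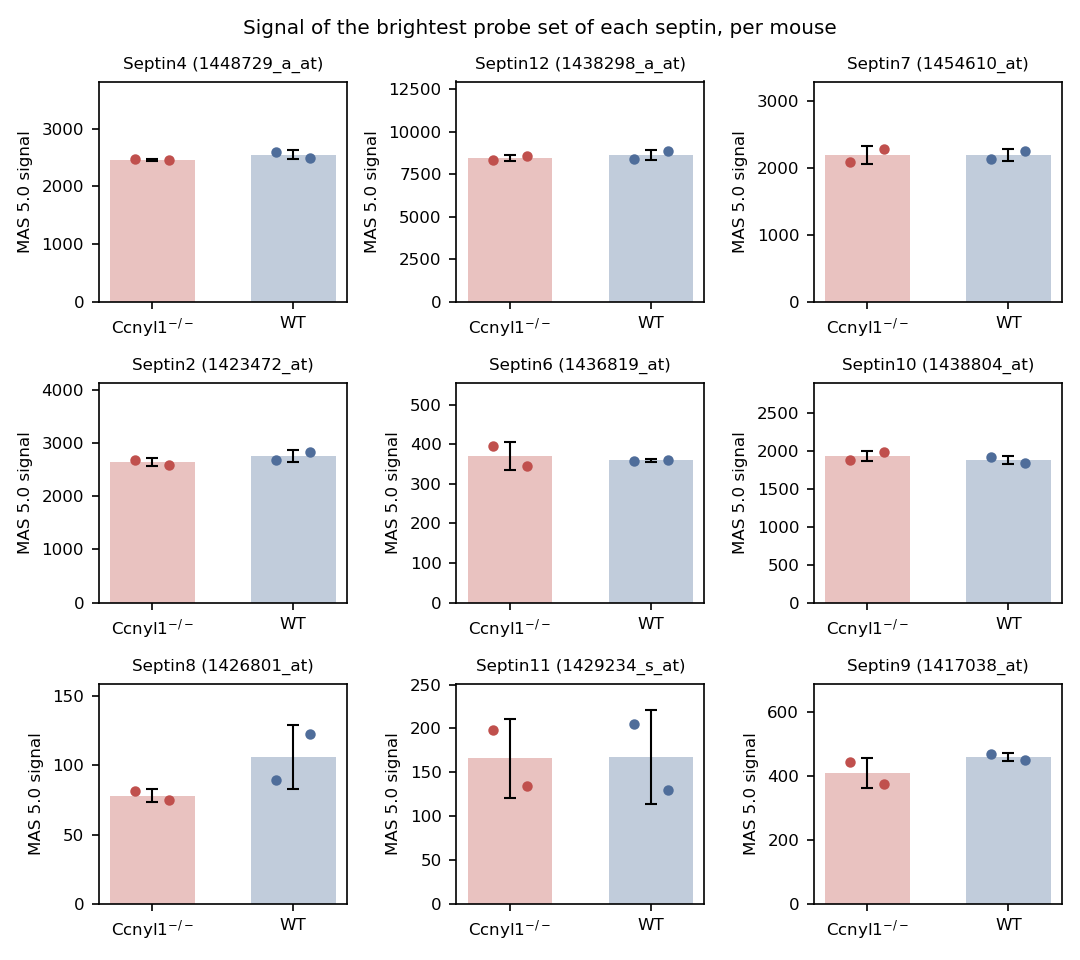
MAS 5.0 signal (arbitrary units, linear axis from 0) of the brightest probe set of each of the 9 septins, with *Ccnyl1*-/- testes in red and WT testes in blue. Dots are the 2 mice of a genotype, bars their mean and error bars the SD. At *Septin4*, *Septin8* and *Septin9* both *Ccnyl1*-/- mice lie below both WT mice, and at the other 6 septins the genotypes overlap.

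*Septin4*, the septin without which mouse sperm lack an annulus, was bright at both of its probe sets. At 1448729_a_at the signal was 2472 and 2453 in *Ccnyl1*-/- testes, against 2602 and 2493 in WT testes. By a small margin, both mutant mice were below both WT mice. The log2 fold change was -0.048 ± 0.073 (SE), with a 95% interval between -0.21 and 0.12 (limma adjusted p = 0.940), and it moved between -0.079 and -0.018 with 1 mouse left out. At 1455422_x_at the signal was 1234 and 1179 in *Ccnyl1*-/- testes, against 1183 and 1173 in WT testes. Here the genotypes overlapped and the log2 fold change had the other sign, 0.034 (-0.020 with the arrays scaled to one median), with an interval between -0.17 and 0.24 (limma adjusted p = 0.970). Both intervals for *Septin4* thus stayed within 1.5-fold in either direction.

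*Septin12* is expressed mainly in the testis, where its protein is a component of the annulus. The signal of 1438298_a_at was 8320 and 8590 in *Ccnyl1*-/- testes, against 8421 and 8858 in WT testes. The signal of 1460497_a_at was 5657 and 6071 in *Ccnyl1*-/- testes, against 6046 and 6007 in WT testes. The genotypes overlapped at both probe sets. The log2 fold changes were -0.031 ± 0.053 and -0.040 ± 0.060 (SE), and the limma adjusted p-values 0.951 and 0.940. The intervals, between -0.15 and 0.091 for the first and between -0.18 and 0.097 for the second, were the narrowest of the family.

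*Septin2*, whose protein is of the same homology group as SEPTIN4, gave 2689 and 2588 in *Ccnyl1*-/- testes, against 2681 and 2835 in WT testes (1423472_at). The genotypes overlapped. The log2 fold change was -0.063 ± 0.073 (SE), with an interval between -0.23 and 0.10 (limma adjusted p = 0.916). Its other probe set, 1423473_at, was too dim to be tested, with 38.5 and 29.4 in *Ccnyl1*-/- testes, against 18.4 and 20.8 in WT testes. *Septin2* lies on chromosome 1 as *Ccnyl1* does, with 248 protein-coding genes between them.

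The probe sets of *Septin7*, the core subunit, differed among themselves. At 1454610_at, the brightest, the signal was 2093 and 2286 in *Ccnyl1*-/- testes, against 2129 and 2253 in WT testes. The mice of both genotypes spanned the same range, and the log2 fold change was -0.0019 ± 0.083 (SE; interval between -0.19 and 0.19, limma adjusted p = 0.999). At 1437995_x_at the signal was 1017 and 1120 in *Ccnyl1*-/- testes, against 677 and 950 in WT testes. Both mutant mice were above both WT mice, and the WT mice lay further apart than the mutant mice. The log2 fold change was 0.40 ± 0.16 (SE; interval between 0.047 and 0.76), and limma gave an adjusted p of 0.797. This was the only septin probe set with an unadjusted p under 0.05 (limma, 0.031). Its fold change was 0.16 without WT replicate 1, the lower WT mouse, and 0.64 without WT replicate 2. The suffix _x_at marks probe sets with probes that can match other transcripts. The dimmest, 1438911_at, gave 61.5 and 50.3 in *Ccnyl1*-/- testes, against 37.7 and 61.4 in WT testes, and the genotypes overlapped.

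**Figure D2:**
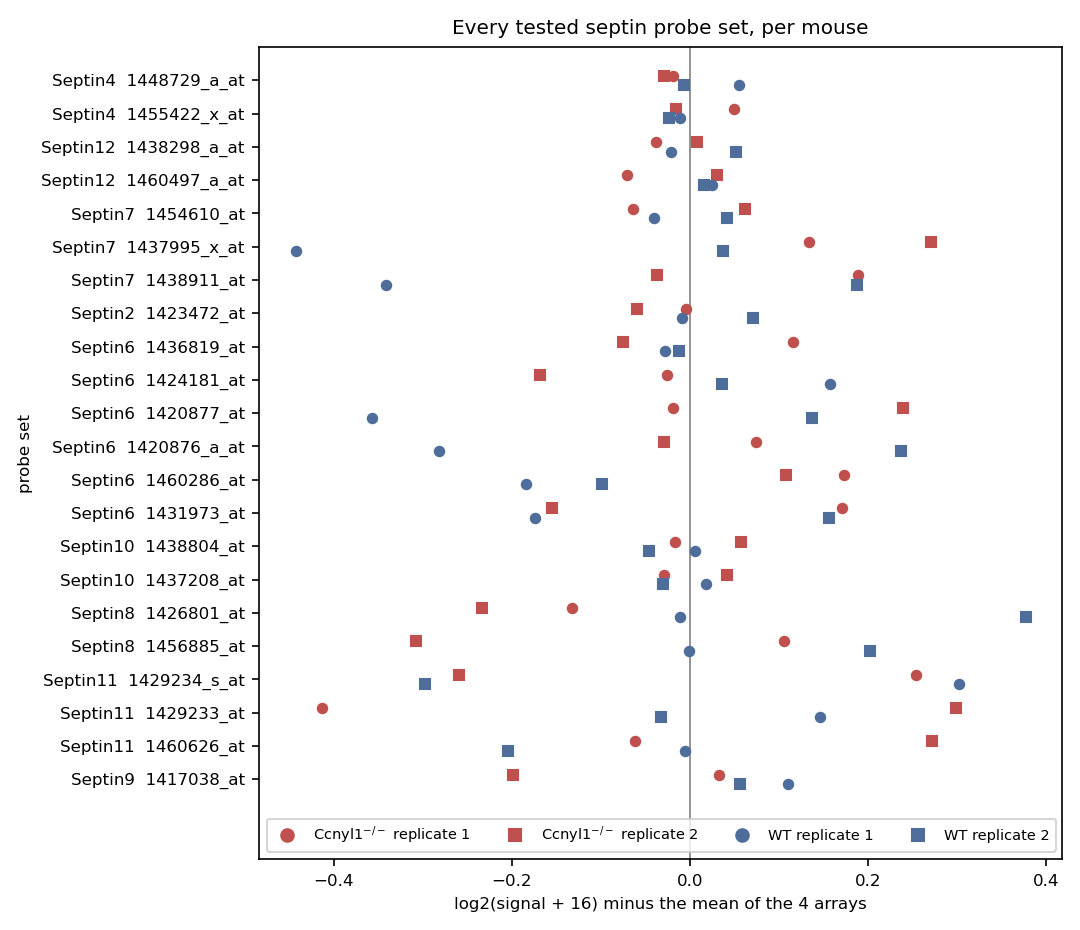
Each of the 22 tested septin probe sets in each mouse, as log2(signal + 16) minus the mean of the 4 arrays, with *Ccnyl1*-/- mice in red above WT mice in blue, and circles and squares for replicates 1 and 2. The bright probe sets of *Septin4*, *Septin12* and *Septin2* keep all 4 mice close to 0, while *Septin7* 1437995_x_at has WT replicate 1 far to the left.

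In the group of *Septin6*, whose proteins stand between the other subunits of a rod, *Septin10* was measured most tightly. The signal of 1438804_at was 1886 and 1986 in *Ccnyl1*-/- testes, against 1916 and 1849 in WT testes. The signal of 1437208_at was 966 and 1015 in *Ccnyl1*-/- testes, against 998 and 965 in WT testes. The genotypes overlapped at both, with log2 fold changes of 0.040 (interval between -0.14 and 0.22) and 0.013 (interval between -0.21 and 0.24) and limma adjusted p-values of 0.958 and 0.994, and both turned negative with the arrays scaled to one median.

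*Septin6* itself had 7 probe sets, the most of any septin, of which 6 were tested. The brightest, 1436819_at, gave 396 and 345 in *Ccnyl1*-/- testes, against 357 and 361 in WT testes. The WT mice lay between the mutant mice, and the log2 fold change was 0.040, with an interval between -0.28 and 0.36. At 1424181_at the signal was 108 and 96.6 in *Ccnyl1*-/- testes, against 125 and 114 in WT testes. Both mutant mice were below both WT mice at this probe set (log2 fold change -0.19, limma adjusted p = 0.916). At 1460286_at the order was turned, with 68.8 and 65.1 in *Ccnyl1*-/- testes, against 50.2 and 54.3 in WT testes (log2 fold change 0.28, limma adjusted p = 0.911). The 3 other tested probe sets of *Septin6* overlapped, with log2 fold changes between 0.017 and 0.22. The untested 1440939_at gave 45.8 and 32.3 in *Ccnyl1*-/- testes, against 21.4 and 1.79 in WT testes. Of the 6 tested probe sets of *Septin6*, 5 had a positive and 1 a negative fold change, and with the arrays scaled to one median 3 of the 5 turned negative.

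*Septin8*, a widely expressed septin of this group, had the most negative fold change of the family with all 4 mice in the fit. The signal of 1426801_at was 81.3 and 74.7 in *Ccnyl1*-/- testes, against 89.8 and 123 in WT testes. Both mutant mice were below both WT mice, while the WT mice differed from each other more than the mutant mice did. The log2 fold change was -0.37 ± 0.26 (SE), with an interval between -0.96 and 0.23 (limma adjusted p = 0.872). Leaving out 1 mouse moved it between -0.56 (without WT replicate 1) and -0.17 (without WT replicate 2), and without WT replicate 2 or *Ccnyl1*-/- replicate 2 a probe set of *Septin11* was more negative. At 1456885_at the signal was 56.9 and 38.7 in *Ccnyl1*-/- testes, against 51.6 and 61.9 in WT testes, and the genotypes overlapped (log2 fold change -0.20). The untested 1426802_at gave 1.02 and 8.04 in *Ccnyl1*-/- testes, against 10.5 and 39.1 in WT testes.

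*Septin11*, of the same group, varied within genotypes. At 1429234_s_at the signal was 198 and 134 in *Ccnyl1*-/- testes, against 205 and 130 in WT testes. Each genotype thus held a higher and a lower mouse, and the log2 fold change was -0.0048, with an interval between -0.61 and 0.60. At 1429233_at the signal was 97.5 and 170.0 in *Ccnyl1*-/- testes, against 151 and 132 in WT testes, and in the mutant it was the other mouse that was higher. At 1460626_at the signal was 115 and 149 in *Ccnyl1*-/- testes, against 120.3 and 103 in WT testes. The untested 1444704_at gave 20.4 and 9.52 in *Ccnyl1*-/- testes, against 30.01 and 8.12 in WT testes. The genotypes overlapped at all 4 probe sets of *Septin11*.

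*Septin9*, a widely expressed septin of the same group as *Septin12*, had 1 probe set. Its signal was 444 and 376 in *Ccnyl1*-/- testes, against 469 and 451 in WT testes (1417038_at). The genotypes did not overlap, the mutant mice being lower. The log2 fold change was -0.17 ± 0.14 (SE), with an interval between -0.48 and 0.15 (limma adjusted p = 0.889). It was -0.050 without *Ccnyl1*-/- replicate 2, the lower mutant mouse, and -0.28 without *Ccnyl1*-/- replicate 1.

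**Figure D3:**
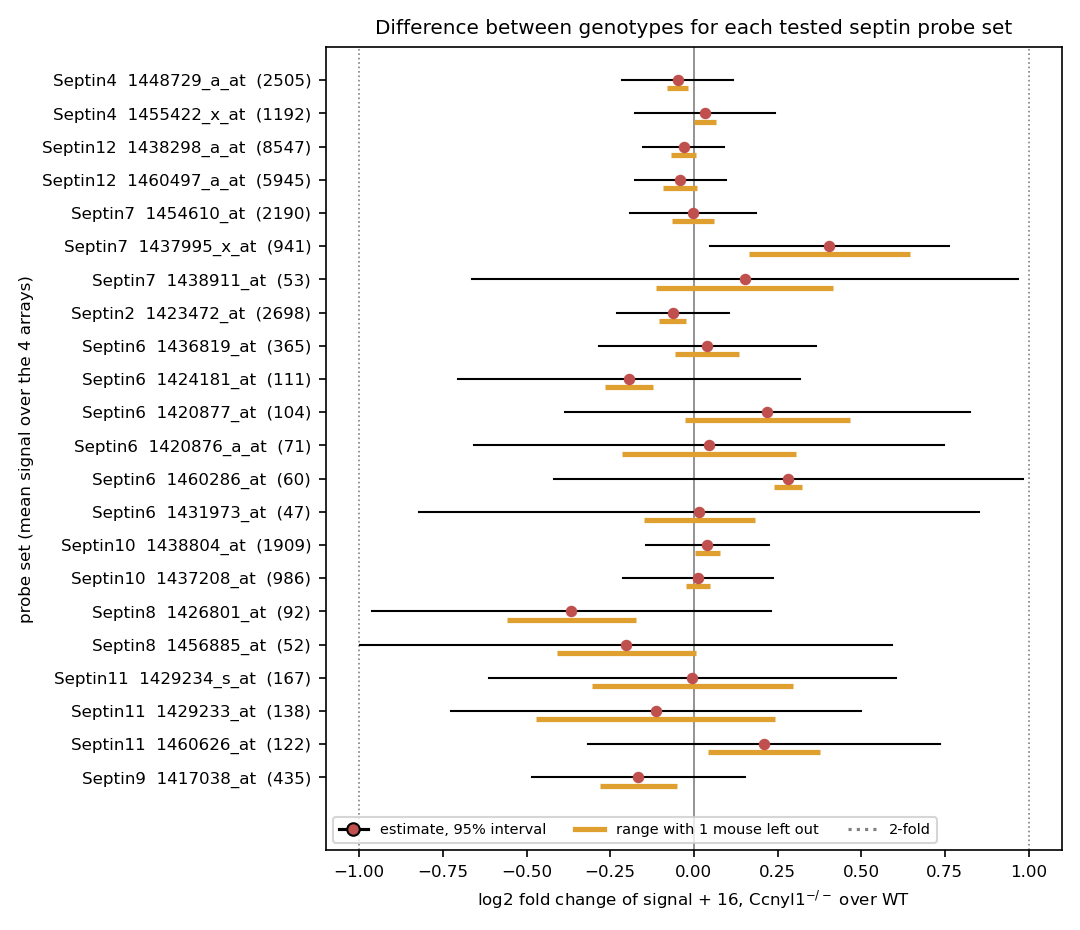
Log2 fold change of signal + 16, *Ccnyl1*-/- over WT, for each of the 22 tested septin probe sets, with the mean signal of the 4 arrays in brackets. Points are estimates, black lines 95% intervals, orange lines the range when each mouse was left out in turn, and dotted lines 2-fold of signal + 16. All 22 intervals lie within the 2-fold lines, and that of *Septin7* 1437995_x_at alone leaves out 0.

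Across the family, both mice of a genotype lay on one side of the other genotype at 6 of 22 tested probe sets, against 35.9% of all tested probe sets. With the arrays scaled to one median it was 9 of 22, against 37.1% of all, and with no minimum signal 9 of 26, against 35.1% of all. On the deposited scale, both *Ccnyl1*-/- mice were higher at 2 of the 22 (*Septin7* 1437995_x_at and *Septin6* 1460286_at), against 20.6% of all tested probe sets. Both were lower at 4 of the 22 (*Septin4* 1448729_a_at, *Septin6* 1424181_at, *Septin8* 1426801_at and *Septin9*), against 15.3% of all tested probe sets. With 2 mice against 2, an exact permutation test of a single probe set cannot go below p = 0.33 (two-sided). Leaving out 1 mouse turned the sign of the fold change at 12 of the 22.

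The width of the intervals gives what these arrays could have missed. All 22 intervals lay within 2-fold in either direction, as did 75.8% of those over all probe sets, and 10 of 22 lay within 1.5-fold, as did 46.8% over all. At a mean signal of 1000 and over, where *Septin2*, *Septin4*, *Septin7*, *Septin10* and *Septin12* gave 7 probe sets, the intervals of all 7 lay within 1.5-fold, beside 97.5% of the 6575 probe sets in that range. The median size of their fold changes was 0.040, beside 0.070 in that range. Of these 7, 5 had a negative fold change, beside 57.0% of the range. Below a mean signal of 100, none of 6 septin probe sets had an interval within 1.5-fold. The intervals of both tested *Septin8* probe sets held a 1.5-fold lower level, so that a decrease of that size was not excluded there. The same held at some probe sets of *Septin6*, *Septin7* and *Septin11*, among them 1424181_at, 1438911_at and 1429233_at. A 1.5-fold increase was likewise not excluded at some probe sets of these genes. Among them were *Septin6* 1460286_at (upper bound 0.98), *Septin7* 1437995_x_at (0.76) and *Septin11* 1460626_at (0.74).

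**Figure D4:**
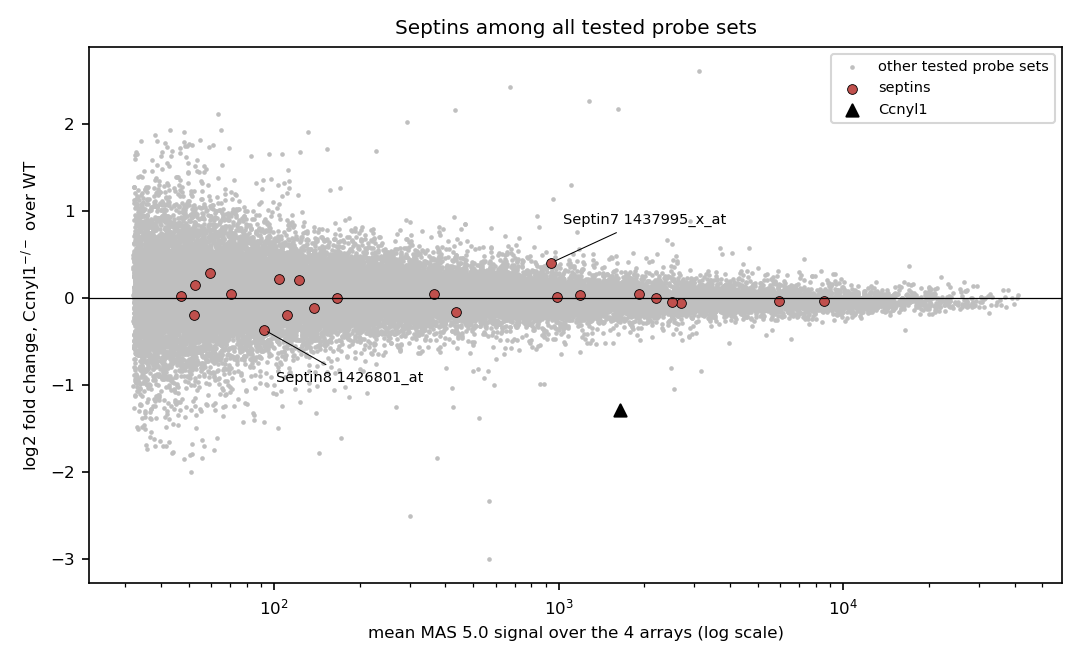
Log2 fold change of signal + 16, *Ccnyl1*-/- over WT, plotted by mean signal on the 4 arrays (MAS 5.0, log axis) for all tested probe sets in grey, the 22 septin probe sets in red and *Ccnyl1* as a black triangle. The septins lie between -0.37 and 0.40, while *Ccnyl1* lies at -1.29.

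The 3 other septins named on the array had 5 probe sets, and 0 passed the test. The largest positive difference was at 1444778_at of *Septin3*, a septin of neurons, with 44.1 and 47.9 in *Ccnyl1*-/- testes, against 32.6 and 7.29 in WT testes (log2 fold change 0.88, limma adjusted p = 0.848). This probe set lay close to the minimum signal, with a mean of 33.0 over all arrays. The WT mean of 19.9 was under the minimum and the *Ccnyl1*-/- mean of 46.0 above it. It was thus tested only through the mutant mice, and its direction cannot be separated from this selection. The brighter *Septin3* probe set 1417414_at gave a log2 fold change of -0.048. *Septin1*, a septin of blood cells, gave 41.8 and 45.8 in *Ccnyl1*-/- testes, against 73.0 and 61.6 in WT testes (log2 fold change -0.48, limma adjusted p = 0.863).

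Other proteins of the annulus, or needed for it in mice, were represented by *Slc26a8*, *Dnajb13*, *Cibar1*, *Cby3* and *Selenop*, with 8 probe sets, of which 0 passed the test and 2 had an unadjusted p under 0.05, a share of 25% beside 6.05% of all tested probe sets. At the brightest probe set of each gene all 5 fold changes were negative, with a median of -0.073, beside 57.0% negative among all probe sets with a mean signal of 1000 and over. *Cby3*, which encodes a partner of CIBAR1 at the annulus, gave 1106 and 1159 in *Ccnyl1*-/- testes, against 1343 and 1502 in WT testes (1432568_at). Both mutant mice were below both WT mice, and the log2 fold change was -0.32 ± 0.098 (SE, limma adjusted p = 0.729). The order was the same at the dimmer *Cby3* probe set 1432569_at, with 76.4 and 58.3 in *Ccnyl1*-/- testes, against 78.2 and 96.9 in WT testes. There too the log2 fold change was -0.32 (limma adjusted p = 0.894). For *Cibar1*, which encodes a membrane-binding protein, 1441212_at gave 192 and 140 in *Ccnyl1*-/- testes, against 66.2 and 108 in WT testes (log2 fold change 0.83, limma adjusted p = 0.764). Its bright probe set 1451570_a_at overlapped between genotypes, with a log2 fold change of -0.073. *Slc26a8*, an anion transporter of the sperm annulus, gave 2223 and 2305 in *Ccnyl1*-/- testes, against 2319 and 2427 in WT testes at 1439281_at (log2 fold change -0.067, limma adjusted p = 0.914), while its dimmer 1425915_at gave a log2 fold change of 0.11. *Dnajb13*, a chaperone-like axonemal protein, gave a log2 fold change of -0.025 and *Selenop*, which carries selenium to the testis, one of -0.090.

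Genes whose proteins bind or regulate septins (*Cdc42*, its effectors *Cdc42ep1* to *Cdc42ep5*, *Anln*, *Rtkn*, *Arhgef18*, *Myh9*, *Myh10*, *Map4*, *Exoc4*, *Stx1a* and *Cdk5*) had 42 probe sets, of which 37 were tested and 0 passed. Their fold changes were positive at 25 and negative at 12, with a median of 0.043. Over all tested probe sets, 17766 were positive and 14672 negative, with a median of 0.022 (-0.030 with the arrays scaled to one median). The largest, 1.08 at 1431062_a_at of *Exoc4*, a subunit of the exocyst, rested on 1 mouse, since the signal was 109 and 116 in *Ccnyl1*-/- testes, against 116 and 11.9 in WT testes. *Myh9*, a nonmuscle myosin heavy chain, gave 126 and 97.2 in *Ccnyl1*-/- testes, against 91.0 and 53.3 in WT testes at 1420170_at (log2 fold change 0.56, limma adjusted p = 0.840). A limma unadjusted p under 0.05 was found at 1 of the 37 (2.7%), beside 6.05% of all tested probe sets. *Cdc42ep5*, a CDC42 effector that shapes septin filaments, held this 1 and was chosen after its values were seen. It gave 567 and 570 in *Ccnyl1*-/- testes, against 445 and 474 in WT testes at 1418712_at (log2 fold change 0.30, limma adjusted p = 0.810), while its other probe set 1430018_at gave -0.065.

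*Cdk16*, the kinase that cyclin Y proteins bind, gave 1195 and 1065 in *Ccnyl1*-/- testes, against 1143 and 1330 in WT testes at its brightest probe set 1415956_a_at, and the genotypes overlapped (log2 fold change -0.13, limma adjusted p = 0.894). They also overlapped at its other tested probe sets 1438625_s_at, 1460169_a_at and 1443296_at. The log2 fold changes there were negative too, at -0.076, -0.32 and -0.090. *Ccny*, which encodes cyclin Y itself, gave 1538 and 1567 in *Ccnyl1*-/- testes, against 1663 and 1722 in WT testes at 1428971_at. The mutant mice were both lower there, with a log2 fold change of -0.12 and a limma adjusted p of 0.862, while at 3 others of its 7 tested probe sets (1428413_at, 1432352_at and 1428414_at) they were both higher, with log2 fold changes of 0.11, 0.30 and 0.27.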

How the data were processed

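RNA of whole testis from 2 *Ccnyl1*-/- and 2 WT mice was measured on 4 arrays. The values deposited by the authors are MAS 5.0 intensities on a linear scale, each array corrected for background by itself and scaled by 1 factor. The methods state a target of 100 for the trimmed mean, while the trimmed mean of the deposited values was 500 on each array. Of 45101 probe sets, 64 controls were left out. Symbols came from the platform annotation, in which 34945 probe sets have 1 gene, 932 several and 9160 none. Signals were tested as log2(signal + 16) over the 32438 probe sets with a mean of at least 32, with lmFit and eBayes (with trend) of limma 3.58.1 in R 4.3.3, two-sided, with Benjamini-Hochberg adjustment and a threshold of 0.05. The fit was tested on simulated data. Named were every septin probe set, the other annulus genes, *Ccnyl1*, *Ccny* and *Cdk16*, and the 2 genes with the largest absolute fold change among the other septins and among the septin partners. *Cdc42ep5*, *Lcn8*, *Dmc1* and the Leydig cell genes *Star*, *Cyp11a1*, *Cyp17a1* and *Hsd3b1* were named after their values were seen. Members and lists were chosen with earlier results of these data known. The number of arrays limits the precision. Alternatives covered offset, minimum signal, normalization, test, replicate block, probe suffix and left-out mice.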

Additional observations from a re-analysis of the deposited data

How the results depend on the processing

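No septin probe set passed an adjusted p of 0.05 under any alternative, the lowest being 0.162 without WT replicate 2. The methods' t-test gave 1 septin probe set before and 0 after Benjamini-Hochberg adjustment. That 1 was *Septin6* 1460286_at (t-test, unadjusted p = 0.0344), and *Septin7* 1437995_x_at, the 1 counted by limma, was not counted by it. With the replicate block the count was 0, with a lowest adjusted p of 0.435. The numbers share no stated origin, and the deviations of the mice numbered 1 correlated at 0.014. The median fold change was -0.048 with arrays scaled to one median, which put the median of all probe sets at -0.030, and ranged between -0.031 and 0.010 with 1 mouse left out, the lowest without WT replicate 1. With signals rescaled to a trimmed mean of 100, chosen after seeing the data, 12 septin probe sets were tested and 3 of them did not overlap. The share over all probe sets was not taken under this rescaling, so that the 3 cannot be set against a background. The genotypes did not overlap at 9 of 22 with arrays scaled to one median, against 37.1% of all. With no minimum signal it was 9 of 26, against 35.1% of all. With arrays scaled to one median, signs turned at *Septin4* 1455422_x_at (-0.020), *Septin6* 1436819_at (-0.013), 1420876_a_at (-0.00041) and 1431973_at (-0.025), and *Septin10* 1438804_at (-0.014) and 1437208_at (-0.041). Under quantile normalization they turned at *Septin6* 1420876_a_at (-0.029) and 1431973_at (-0.045). With 1 mouse left out, fold changes that turned ranged between -0.055 and 0.14 at *Septin6* 1436819_at, -0.22 and 0.30 at 1420876_a_at, -0.027 and 0.47 at 1420877_at, and -0.15 and 0.18 at 1431973_at. For *Septin7* they ranged between -0.065 and 0.061 at 1454610_at and between -0.11 and 0.42 at 1438911_at, and for *Septin8* between -0.41 and 0.0051 at 1456885_at. For *Septin10* 1437208_at the range was -0.023 to 0.048, for *Septin11* 1429233_at -0.47 to 0.24 and 1429234_s_at -0.30 to 0.30, and for *Septin12* 1438298_a_at -0.067 to 0.0056 and 1460497_a_at -0.091 to 0.011. The cause of these turns was not tested.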
